A study of Mus musculus with 13 samples.

Results

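The Pax loci are 8 windows of the mouse genome, build mm9, each placed over 1 gene of the Pax family: Pax1, Pax2, Pax3, Pax5, Pax6, Pax7, Pax8 and Pax9. The members are the peaks of histone H3 lysine 27 trimethylation (H3K27me3) that overlap these windows: 9 of the 1053 peaks in the H3.1K27M list and 10 of the 1192 peaks in the H3.3K27M list. Joined by overlaps of at least 1 bp, they form 10 of the 1383 regions of both lists. The windows were chosen by peak positions already seen in the same lists. The presence, width and rank of peaks in them are thus a description and support nothing. No test was run on these members, because each mutant had a single list and the lists hold positions only.

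The study used mouse embryonic fibroblasts, connective tissue cells grown from embryos. The labels describe 13 samples in 11 groups, covering H3K27me3, EZH2 and combined FLAG and EZH2 precipitations. The H3.1K27M group comprised fibroblasts stably expressing, from a lentivirus, histone H3.1 with lysine 27 changed to methionine, and the H3.3K27M group fibroblasts expressing H3.3 with the same change. Each of these groups had 2 replicate samples that shared 1 peak list, and no label says that the cells' own H3 genes were removed, which promoter drove the mutant or whether a line was 1 clone. Samples of control cells, labelled as empty, and of lysine-to-arginine (K27R) mutants were not analysed here, so every value below compares 1 mutant with the other and not with unaltered cells. The lists hold no expression values, and the fibroblast label could not be set against marker genes.

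Pax genes encode transcription factors that bind DNA through a paired domain, and several also carry a homeodomain. They fall into subgroups of close relatives, Pax1 with Pax9, Pax2 with Pax5 and Pax8, Pax3 with Pax7, and Pax4 with Pax6, and each directs the making of particular organs in the embryo. H3K27me3 is placed by the Polycomb repressive complex PRC2, whose catalytic subunit is EZH2, and in cells that do not use such developmental regulators it typically covers their genes as broad domains anchored at CG-rich promoters. Lysine-to-methionine mutants of H3 at position 27 are known inhibitors of PRC2. Pax4 has no window here.

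Because CG dinucleotides mark the promoters that Polycomb favours, the promoter windows of the genes on which the lists disagreed (Pax1 and Pax9), of the gene with no peak in its window (Pax8) and of one gene with broad peaks in both lists (Pax7) are shown here. The sequences are from RefSeq, each 300 bases from 250 before to 50 after the gene's start, 5′ to 3′ on the gene's strand, with every CG in capitals. Their coordinates are on GRCm38.p6, a later build than that of the peaks, and their places on mm9 were not determined. The windows are chr2:147364744-147365043 on the plus strand for Pax1, chr12:56695221-56695520 on the plus strand for Pax9, chr2:24475550-24475849 on the minus strand for Pax8 and chr4:139832919-139833218 on the minus strand for Pax7.
Pax1: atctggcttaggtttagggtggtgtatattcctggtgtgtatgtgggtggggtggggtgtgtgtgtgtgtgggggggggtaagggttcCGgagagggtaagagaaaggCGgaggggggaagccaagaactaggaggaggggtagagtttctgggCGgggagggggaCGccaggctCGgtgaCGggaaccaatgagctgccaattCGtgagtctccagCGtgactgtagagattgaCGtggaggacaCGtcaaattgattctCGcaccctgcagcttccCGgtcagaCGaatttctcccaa
Pax9: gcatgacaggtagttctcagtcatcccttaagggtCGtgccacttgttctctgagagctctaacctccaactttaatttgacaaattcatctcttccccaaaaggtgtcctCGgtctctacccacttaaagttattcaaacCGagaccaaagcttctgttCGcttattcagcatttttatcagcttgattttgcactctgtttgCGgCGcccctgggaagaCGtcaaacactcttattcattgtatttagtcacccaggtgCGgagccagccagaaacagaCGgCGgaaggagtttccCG
Pax8: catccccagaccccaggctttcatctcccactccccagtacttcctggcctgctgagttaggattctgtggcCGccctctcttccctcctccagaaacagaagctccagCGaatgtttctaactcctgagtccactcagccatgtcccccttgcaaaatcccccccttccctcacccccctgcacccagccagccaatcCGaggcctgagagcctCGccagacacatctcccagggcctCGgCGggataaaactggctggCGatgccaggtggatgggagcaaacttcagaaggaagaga
Pax7: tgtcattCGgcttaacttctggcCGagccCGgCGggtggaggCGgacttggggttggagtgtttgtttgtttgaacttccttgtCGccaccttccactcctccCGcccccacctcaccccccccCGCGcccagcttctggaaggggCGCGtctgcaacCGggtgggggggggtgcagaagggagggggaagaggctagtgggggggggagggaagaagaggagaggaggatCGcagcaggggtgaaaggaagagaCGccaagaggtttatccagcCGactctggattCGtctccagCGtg

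H3K27me3 was called in both mutants at 5 of the 8 Pax windows, those of Pax2, Pax3, Pax5, Pax6 and Pax7. Pax1 had a peak in the H3.1K27M list alone, Pax9 in the H3.3K27M list alone, and Pax8 had none in either. Pax peaks were broad: the median width was 26.4 kb in the H3.1K27M list and 24.6 kb in the H3.3K27M list, against 5.6 and 7.2 kb over all peaks. Of the Pax peaks, 6 of 9 in H3.1K27M were at or above 18.4 kb, a width that 10.1% of all peaks of that list reached. In H3.3K27M 6 of 10 were at or above 21.2 kb, which 10.2% of that list reached. The narrowest Pax peak, 7.6 kb in H3.1K27M and 8.8 kb in H3.3K27M, was still above the median of its list. An absent peak shows only that none was called, since the depth behind the lists is unknown.

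**Figure D1:**
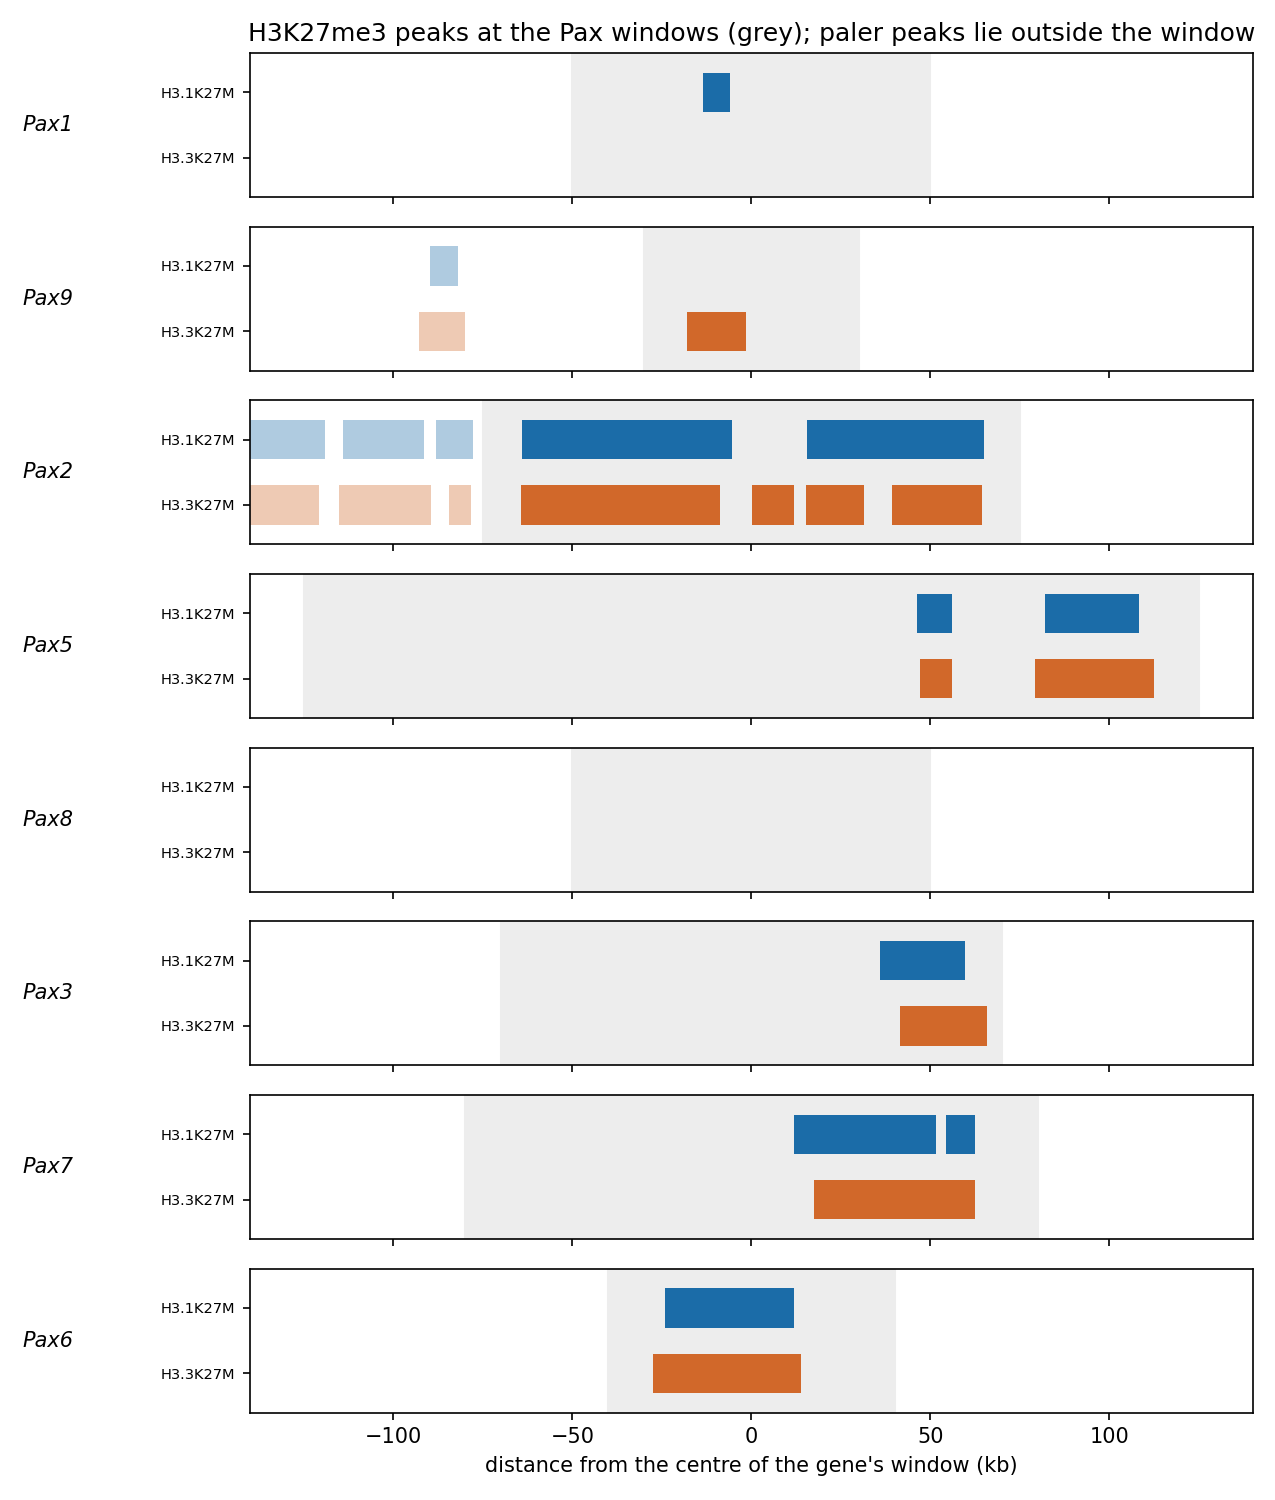
H3K27me3 peaks of the H3.1K27M list (blue) and of the H3.3K27M list (orange) at the 8 Pax windows (grey). The horizontal axis gives the distance in kb from the centre of each window, and paler bars are peaks outside it. Peaks appear in both rows at 5 windows, in 1 row at Pax1 and Pax9, and in neither at Pax8.

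Pax1 and Pax9, close relatives that act in the formation of the vertebral column, with Pax9 also needed for teeth and thymus, were the loci at which the lists disagreed, and they did so in opposite directions. The Pax1 window, chromosome 2 from 147150000 to 147250000, held a 7.6 kb H3.1K27M peak from 147186401 to 147193999 and no H3.3K27M peak. The nearest H3.3K27M peak lay 163 kb to the left, that is, toward lower coordinates. At that place both lists had a peak with the same start and end, from 147005201 to 147023399 (18.2 kb), 1 of 10 shared regions with both edges in common. At that neighbouring domain the edges of the 2 lists fell on the same steps of the 200 bp grid, while at Pax1 the lists differed. What lies behind the difference at Pax1 was not tested.

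The Pax9 window, chromosome 12 from 57770000 to 57830000, held a 16.6 kb H3.3K27M peak from 57782001 to 57798599 and no H3.1K27M peak. The nearest H3.1K27M peak lay 64 kb to the left. In the RefSeq gene order of the later build, Nkx2-9, a homeobox gene, precedes Pax9, and Nkx2-2, another of that family, precedes Pax1. On the side of Nkx2-9 both lists had peaks, and those of the H3.3K27M list were the wider ones: 12.8 kb against 7.8 kb for the nearer region and 34.6 kb against 24.4 kb for the next. The H3.3K27M list alone thus had a peak at Pax9, and it covered more in both of these regions outside the window. That was the direction of 77.4% of all shared regions. At Pax1 the H3.3K27M list had no peak.

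Unmatched peaks were otherwise mostly narrow. The Pax1 peak was wider than most of the 198 H3.1K27M peaks without a partner, of which 13 were wider and whose median was 3.2 kb. The Pax9 peak was exceeded by 9 of the 354 H3.3K27M peaks without a partner, whose median was 5 kb. Peaks are numbered by position in each list, with some numbers skipped. No number was skipped in the other list at the Pax1, Pax9 or Pax2 places without a partner. What a skipped number stands for was not determined, so nothing was read from this. Counting all Pax peaks, 8 of 9 in H3.1K27M overlapped an H3.3K27M peak (81.2% of all H3.1K27M peaks did), and 8 of 10 in H3.3K27M overlapped an H3.1K27M peak (70.3% of all H3.3K27M peaks did). These counts are too small to set the Pax loci apart from the rest of the lists.

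Pax2, which directs the development of the kidney, the optic stalk and the boundary of midbrain and hindbrain, had the longest length covered by H3K27me3 peaks in the family. Its window, chromosome 19 from 44780000 to 44930000, was covered to 72.1% in H3.1K27M and 72.3% in H3.3K27M cells, or 108.2 and 108.4 kb. The difference of these totals is 1 step of the 200 bp grid on which peaks start. The layout differed more than the total. In H3.1K27M cells there were 2 peaks, of 58.8 kb from 44790801 to 44849599 and of 49.4 kb from 44870601 to 44919999, separated by 21 kb. In H3.3K27M cells there were 4.

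The left domain of Pax2 was nearly the same in both lists, with an H3.3K27M peak of 55.6 kb that began 0.2 kb earlier and ended 3.4 kb earlier than the H3.1K27M peak. The right domain was a single H3.1K27M peak and a pair of H3.3K27M peaks, of 16.2 and 25 kb, with 8 kb between them. Their outer edges lay within 0.6 kb of those of the H3.1K27M peak. Between the domains, the H3.3K27M list had an 11.6 kb peak from 44855201 to 44866799 where the H3.1K27M list had none. That peak lay 3.8 kb from the nearest H3.1K27M peak, and 21 of the 354 H3.3K27M peaks without a partner were wider.

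Just outside the left border of the Pax2 window lay an H3.1K27M peak of 10.2 kb, at 2.8 kb, and an H3.3K27M peak of 6.2 kb, at 3.4 kb. Around the other windows the closest peaks left out lay 50 kb or more away.

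Pax5, the gene that fixes B lymphocyte identity, carried a narrow and a broad domain toward the right end of its window, chromosome 4 from 44500000 to 44750000. The narrow one measured 9.6 kb in the H3.1K27M list and 8.8 kb in the H3.3K27M list, and both peaks ended at the same base, 44680999. The broad one measured 26.4 kb with H3.1K27M, from 44707001 to 44733399, and 33.2 kb with H3.3K27M, from 44704201 to 44737399. Here the H3.3K27M peak reached 2.8 kb further to the left and 4 kb further to the right, a ratio of 1.26, the largest of the shared Pax regions. The part of the Pax5 window left of these domains had no peak in either list.

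Pax8, which is needed for the thyroid follicular cells and acts in the kidney together with Pax2, had no peak in its window of 100 kb, chromosome 2 from 24250000 to 24350000. The nearest peaks lay 746.8 kb from the window in H3.1K27M and 793.4 kb in H3.3K27M. The 3 genes of this subgroup thus ranged from the widest coverage of the family to none, in both lists alike.

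Pax3, a regulator of neural crest and of muscle precursors, had 1 peak of almost the same width in each list, but at a displaced position. In its window, chromosome 1 from 78080000 to 78220000, the H3.1K27M peak of 23.8 kb ran from 78186001 to 78209799. The H3.3K27M peak of 24.2 kb ran from 78191601 to 78215799. The left edge was thus 5.6 kb and the right edge 6 kb further right in H3.3K27M cells, and 61.1% of the length covered by either list was common to both. The nearest other peak of the same list lay 3181 kb away for H3.1K27M and 2741 kb away for H3.3K27M, so the Pax3 domain stood alone.

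Of all 831 shared regions, Pax3 was the sole one in which both edges moved by 5 kb or more in the same direction (0.12% of shared regions, a limit set after this value was seen). By the smaller of the 2 edge moves, the next region, on chromosome 2 from 74481601 to 74553199, moved by 2.8 kb and the one after it by 2.2 kb. The usual pattern was the opposite one, with H3.3K27M extending past H3.1K27M on either side in 508 shared regions, among them the broad Pax5 region and Pax6. The displacement at Pax3 was many times the 200 bp grid step. Measured by the centre of the region, the Pax3 shift was 5.8 kb, at percentile 99.0 of all shared regions. Some other regions thus had a larger centre shift, and Pax3 was sole only by the rule on both edges. Whether it recurs between replicates was not tested, since each mutant had 1 list.

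**Figure D2:**
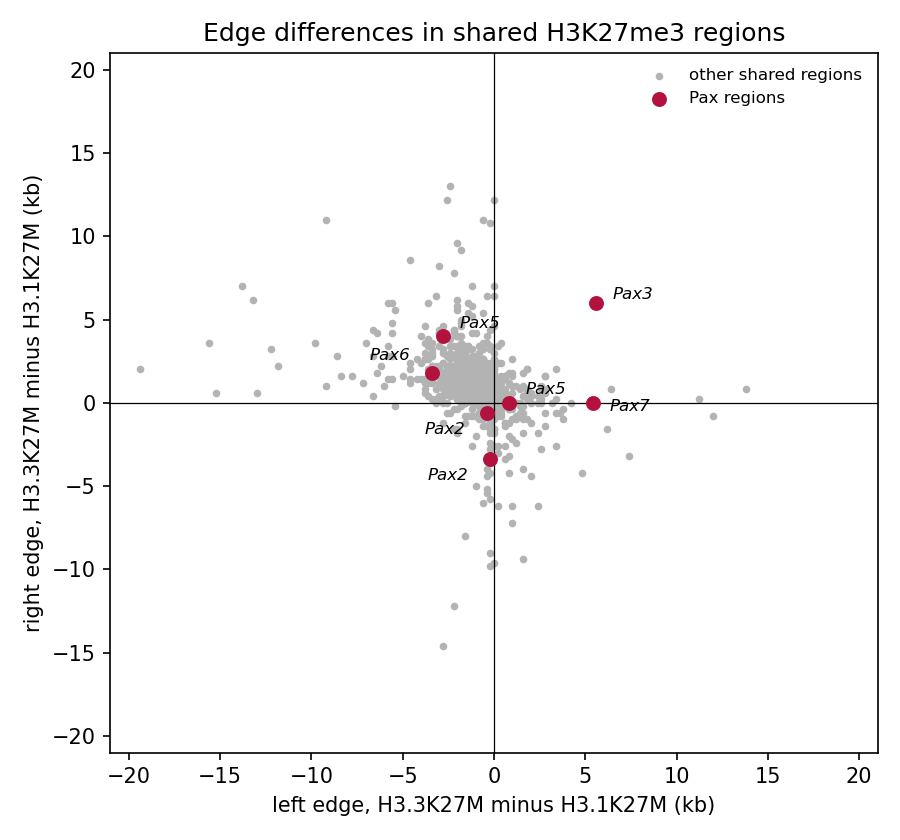
Position of the left edge (horizontal axis, kb) and the right edge (vertical axis, kb) of the H3.3K27M peaks minus that of the H3.1K27M peaks in all shared regions (grey), with the 7 Pax regions in red. Most regions lie in the upper left, where H3.3K27M extends at both edges. Pax3, at 5.6 and 6 kb, lies in the upper right, where both edges are further right in H3.3K27M.

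Pax7, which marks muscle stem cells and acts in the dorsal neural tube, had 2 H3.1K27M peaks, of 39.6 and 8 kb, separated by 2.8 kb, and a single H3.3K27M peak of 45 kb. In the window, chromosome 4 from 139270000 to 139430000, the H3.1K27M peaks ran from 139362001 to 139412399 and the H3.3K27M peak from 139367401 to 139412399. The right edge was the same base in both lists, and the left edge was 5.4 kb further out in H3.1K27M cells. Like Pax3, its close relative, and like Pax5, Pax7 had its H3K27me3 domain in the right part of its window. The selection rule set the window borders, and this placement depends on them. As at Pax3, the H3.1K27M domain of Pax7 began more than 5 kb further left than the H3.3K27M domain. The right edges differed, displaced at Pax3 and at the same base at Pax7. Such a left edge was not particular to these relatives. In shared regions outside the Pax windows it reached 13800 and 12000 bp. Edges lie on a grid of 200 bp, and 2 of the 7 shared Pax regions, Pax7 and the narrow Pax5 domain, had an edge in common, against 15.2% of all shared regions.

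Pax6, which directs the formation of the eye, parts of the brain and the endocrine pancreas, had 1 broad peak in each list. In the window, chromosome 2 from 105480000 to 105560000, the H3.1K27M peak of 36.2 kb ran from 105495801 to 105531999 and lay wholly inside the H3.3K27M peak of 41.4 kb, from 105492401 to 105533799. H3.3K27M reached 3.4 kb further left and 1.8 kb further right, a ratio of 1.14. Pax6 was an isolated domain, with no other peak within 494.8 kb of its window in either list.

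Summed over the 8 windows, Pax peaks covered 259.4 kb with H3.1K27M and 277.6 kb with H3.3K27M, a ratio of 1.07, against 1.36 over all peaks. Of the Pax length in H3.3K27M, 82.1% lay inside H3.1K27M peaks, against 62.6% over the whole list. In the other direction the shares were 87.9% and 84.9%. Pax2 and Pax5, with Pax8 at 0, made up 55.6% of the Pax length in H3.1K27M and 54.2% in H3.3K27M, and Pax3 with Pax7 27.5% and 24.9%. Pax1 with Pax9 made up 2.9% and 6%. With the windows widened by 50 kb on each side the ratio was 0.98, but that border counts a whole H3.1K27M peak left of Pax2 and leaves out the farther of 2 adjoining H3.3K27M peaks that overlap it. With every region counted whole in both lists, a setting added after seeing the data, the ratio was 1.04.

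**Figure D3:**
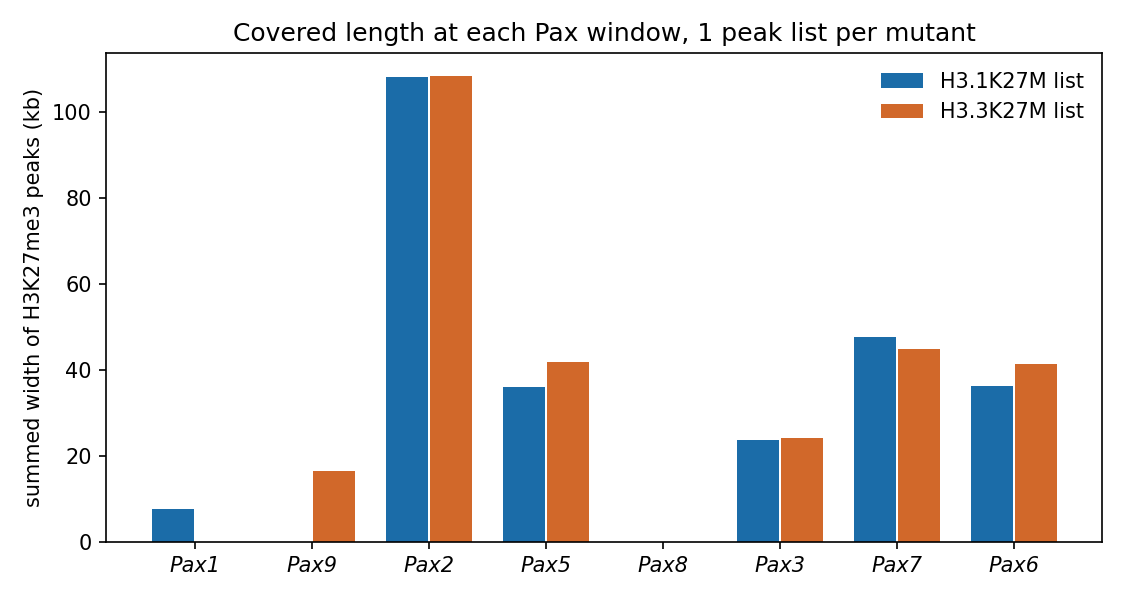
Summed width (vertical axis, kb) of the H3K27me3 peaks that overlap each Pax window, in the H3.1K27M list (blue) and the H3.3K27M list (orange), with close relatives side by side. Pax2 stands highest, at 108.2 and 108.4 kb, and the bars of each pair are near each other except at Pax1 and Pax9, where 1 list has no peak.

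Region by region, the 7 shared Pax regions differed little in length between the mutants. Written as the log2 of H3.3K27M over H3.1K27M covered length, the ratio was -0.08 for the left and -0.26 for the right domain of Pax2, 0.02 for Pax3, and -0.13 and 0.33 for the narrow and the broad domain of Pax5. It was 0.19 for Pax6 and -0.08 for Pax7. The value of the right Pax2 domain turned from -0.26 to 0.19 when peaks under 5 kb apart were merged, since the 11.6 kb H3.3K27M peak then joins it. The H3.1K27M list covered more in 4 of 7 (19.9% of all shared regions) and the H3.3K27M list in 3 of 7 (77.4%). The first count was 3 of 7 with merged peaks, 6 of 10 with the widened windows, and 2 of 5 with single-peak regions only or without Pax2. The median over the 7 was -0.08, against 0.33 over all 831 shared regions, whose SD was 0.60. That median was 0.02 with merged peaks, with single-peak regions only or without Pax2, so it lies near 0 with no set sign.

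No shared Pax region was 1.5 times longer in either list, a limit that 29.7% of all shared regions passed toward H3.3K27M and 5.17% toward H3.1K27M. Broad regions differed less in general. Broad here means a mean covered length (geometric, over the lists) of 9 kb or more, a limit set after the data were seen. It takes in all 7 Pax regions, of which the narrow Pax5 domain, at 9.2 kb, lies just above it. Among the 321 broad shared regions the median log2 ratio was 0.24. Of these, 20.6% were covered more in H3.1K27M and 19% passed 1.5 times toward H3.3K27M. The share of the joint length common to both lists ran from 61.1% at Pax3 to 93.9% at the left Pax2 domain, with a median of 83.7%, against 79.2% for the broad regions and 72.4% for all shared regions.

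Most Pax regions were among the longest of the shared regions, in windows chosen with these peaks in view. By mean covered length, 3 of the 831 shared regions were longer than the left Pax2 domain (57.2 kb), 8 were longer than Pax7 (46.3 kb), 10 than the right Pax2 domain (45.1 kb) and 14 than Pax6 (38.7 kb). The broad Pax5 domain (29.6 kb) was exceeded by 45, Pax3 (24 kb) by 73 and the narrow Pax5 domain (9.2 kb) by 311. The right Pax2 domain and Pax7 were the Pax regions with several peaks of one list, a layout seen in 2.89% of all and 7.48% of broad shared regions. It went in opposite directions, with the H3.3K27M list divided at Pax2 and the H3.1K27M list at Pax7.

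**Figure D4:**
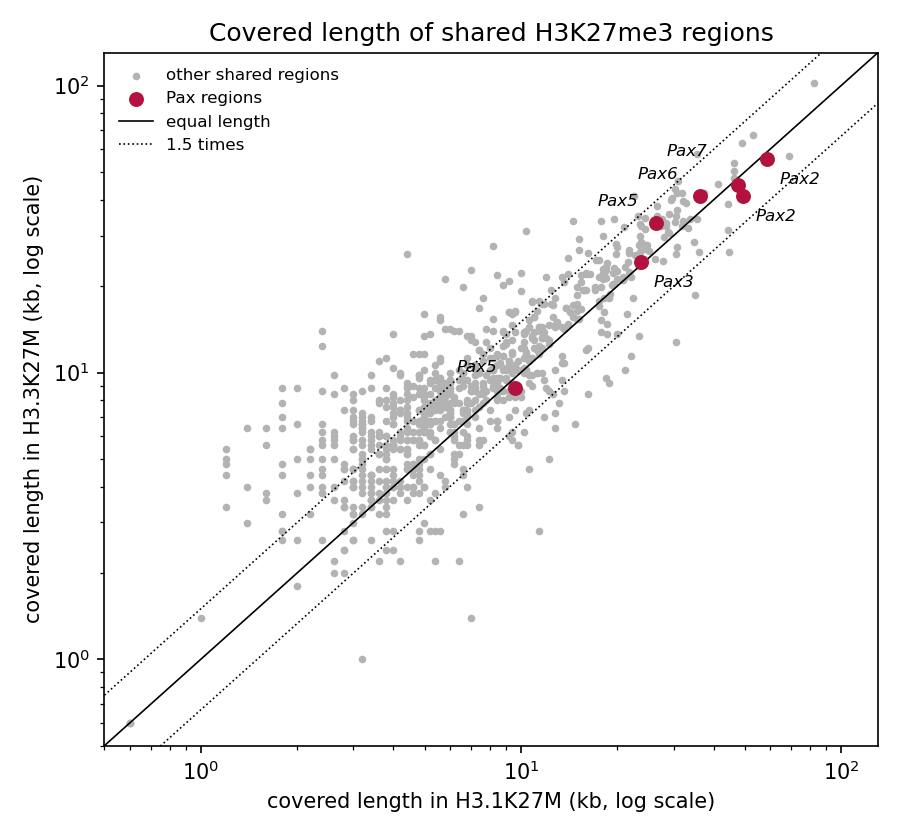
Covered length of all 831 shared regions in the H3.1K27M list (horizontal axis, kb, log scale) and the H3.3K27M list (vertical axis, kb, log scale), with the 7 Pax regions in red. The solid line marks equal length and the dotted lines 1.5 times. All 7 Pax regions lie between the dotted lines, and all except the narrow Pax5 domain lie at the long end.

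The promoter table matched 7 of the 8 Pax genes, with 10 windows among 32851. Counted on 1 strand, since CG reads the same on both, the motif CG was present in 94.6% of all windows, with a median of 7 per window (quartiles 3 and 20). Pax1 had 13, Pax9 11, Pax7 17 and Pax8 7, as printed above. Pax5 had 23, the Pax6 windows 18 and 16, and the Pax2 windows 7, 23 and 30. In all, 8 of the 10 windows were above the median of the table, the exceptions being Pax8 and 1 of the Pax2 windows, both at the median. Pax8, with no H3K27me3 peak, had an observed-to-expected CG ratio of 0.29, the lowest of the 10, and 59.3% G+C, within the range of the others. The remaining ratios ran from 0.41 for that Pax2 window to 1.0 for a Pax6 window, against a median of 0.38 in the table. Pax1 and Pax9, with a peak in 1 list each, were alike in this measure, at 0.64 and 0.68. Pax2, whose windows reached the highest count, also had the longest covered length, but the other genes did not keep this order. Pax5, with 23, covered 36 kb in H3.1K27M and 42 kb in H3.3K27M. Pax7, with 17, covered more, 47.6 and 45 kb. A link of CG count to covered length was not tested, nor was one of CG ratio to the presence of a peak. With 7 genes this is a description of the letters in these windows.

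**Figure D5:**
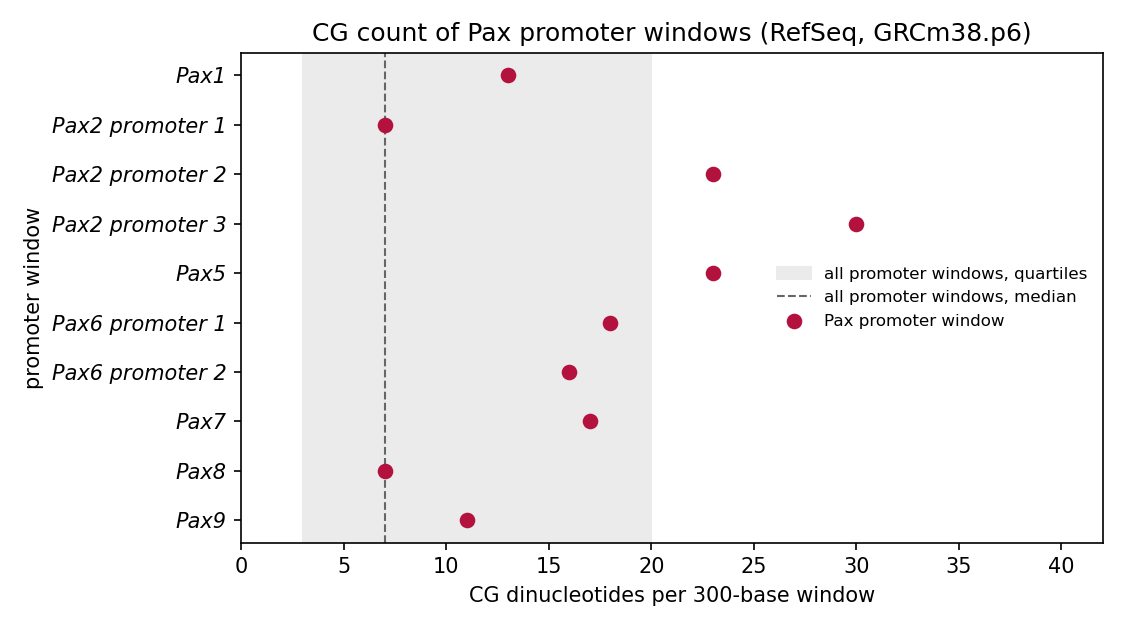
Number of CG dinucleotides (horizontal axis) in each 300-base RefSeq promoter window of the Pax genes (vertical axis, 1 red point per window). The dashed line and the grey band give the median, 7, and the quartiles, 3 and 20, of all 32851 windows. The Pax8 window and the first Pax2 window sit on the median and the other 8 lie to its right.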

How the data were processed

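Chromatin from 13 samples was precipitated after formaldehyde crosslinking and micrococcal nuclease digestion, per the labels' protocols. Peak lists of 2 groups were analysed, 1 list each for H3.1K27M and H3.3K27M, which the labels tie to both replicates of the group. The submitters' processing notes name Bowtie 1.0.0 and deepTools and the build mm9. The peak caller, threshold, depth and any pooling of replicates were not given in the sources used here. Deposited files give chromosome, start, end, width in bp and a running name, and no height or p-value. A deeper library or a looser threshold gives more and wider peaks, so widths were not read as amounts of the mark.

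Windows were taken from the selection rule, and the members and lists were chosen with earlier results of these data known. All 8 genes are named, whatever their values. Peaks overlapping by at least 1 bp were joined into regions, and covered lengths, edges and ranks were computed with Python 3.11.15, numpy 2.4.6, pandas 2.3.3, scipy 1.17.1, networkx 3.6.1 and matplotlib 3.10.9. Joins were tested on simulated lists, none of which held a region with several peaks of 1 list. Positions are printed with the first base as 1, on mm9. Region ratios are log2 of H3.3K27M over H3.1K27M covered length, called past 1.5 times. Alternatives were a reciprocal overlap of 50%, merging of peaks under 5 kb apart, windows widened by 50 kb, clipping at the window, single-peak regions, and call limits of 1.25 and 2 times. The limits of 9 kb for broad regions and 5 kb for displaced edges, the setting without Pax2, widened windows with whole regions and the merging for edges were chosen after seeing the data. Comparison of the proteins was not done, and promoter windows come from RefSeq on GRCm38.p6.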

Additional observations from a re-analysis of the deposited data

How the results depend on the processing

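No paired analysis was possible because 1 peak list stands for both replicates of a group, which also means that leaving out a replicate was not run. Of 39 values under other settings, 30 stayed within the limits set, 4 moved past them and 5 changed sign. The limits were 1.5 times for counts, 0.1 for log2 values and the exact 95% interval for shares. That interval treats the peaks of 1 list as independent, and with 9 or 10 peaks it is wide. A share that stayed within it therefore says little. The ratio of summed Pax length, 1.07, became 0.98 with windows widened by 50 kb, a border that leaves out 1 of 2 adjoining H3.3K27M peaks, 1.04 with whole regions there, and 1.12 without Pax2. The median log2 ratio of -0.08 became 0.02 with single-peak regions only, with peaks under 5 kb apart merged and without Pax2. The right Pax2 domain went from -0.26 to 0.19 on merging, by construction, since the 11.6 kb H3.3K27M peak then joins it. The number of Pax regions past the call limit rose from 0 to 1 with widened windows (a region beside Pax2) and to 1 with the lower limit (the broad Pax5 domain). The number longer in H3.1K27M was 4 of 7, and became 3 of 7 on merging, 6 of 10 with widened windows, and 2 of 5 both with single-peak regions and without Pax2. The Pax3 displacement was still the sole one of its kind after merging. Shares of peaks with a partner ran from 77.8% to 91.7% in H3.1K27M and from 70% to 88.9% in H3.3K27M. Unknown depth limits every statement about an absent peak.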

Other observations

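Left of the Pax2 window, 3 more shared regions lay within 44 kb of its border. The H3.1K27M and H3.3K27M lists covered 10.2 and 6.2 kb in the nearest (ratio 0.61), 22.8 and 25.6 kb in the next (1.12) and 30.8 and 27.4 kb in the farthest (0.89), where the H3.3K27M list had 2 adjoining peaks. A further region 189.4 kb from the window was 7 kb in H3.1K27M and 22.8 kb in H3.3K27M, a ratio of 3.26, so that length ratios on both sides of 1 lay side by side on this chromosome. Left of the Pax5 window, at 58.6 kb in H3.1K27M and 57.8 kb in H3.3K27M, a region of 9.2 kb in H3.1K27M and 8.2 kb in H3.3K27M was again covered slightly more in H3.1K27M, as was the narrow Pax5 domain.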
